A study of Homo sapiens with 16 samples.

Results

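Endoplasmic reticulum (ER) stress genes were examined in brain metastases grown from MDA231, a triple-negative breast cancer cell line, and the group holds 117 of the 2646 genes (4.42%) that the authors' table of enriched Gene Ontology biological processes names for this line. The genes were chosen by term name. They are all genes of the 5 terms, of 314 in the table, whose names speak of ER stress, the unfolded protein response, ER-associated degradation or protein folding. These terms name 121 genes together, and the 4 that also stand in the term for transport from ER to Golgi were left out: HYOU1, PREB, YIF1A and LMAN2L. Being in the MDA231 list is therefore what chose the members and is described here without a test.

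The series profiled brain-metastatic derivatives of MDA231 and of HCC1954, an ERBB2-positive breast cancer line, after 30 days of growth in mouse brain. Mice were given 250 mg/kg 5-fluorocytosine and brains were taken 12 hours later. In this method, Flura-seq, cells able to convert 5-fluorocytosine incorporate the product into new RNA, which is then immunoprecipitated (IP) with an anti-BrdU antibody. There are 4 IP and 4 input libraries for MDA231 and 4 IP and 4 input libraries for HCC1954, and all 4 groups carry the brain-metastatic derivative and the same dosing.

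The values analysed are 1 table of enriched terms per line. They hold no level per library, so depth, replicate spread and the identity of the tumour cells could not be examined and replicate errors cannot be given. How the listed genes were chosen, and whether they were higher or lower in IP than in input RNA, is not given in the sources used here. No direction can therefore be attached to any gene, and a listed gene is called listed only. In bulk RNA of this kind, a change in the number of labelled cells and a change in RNA per cell could not be told apart in any case. Of the 16 markers of neurons, glia and endothelium looked up, the MDA231 table named MAP2 and PECAM1 (12.5%). The named share of all background genes was 15.8%. Either marker was in 1 term, and their part in the results was not tested.

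The ER folds secreted and membrane proteins. When unfolded proteins accumulate there, 3 membrane sensors respond: PERK slows translation by phosphorylating eIF2alpha, IRE1 splices the mRNA of the transcription factor XBP1, and ATF6 is cut in the Golgi to release a transcription factor. Their outputs raise chaperones, widen the capacity to retrotranslocate misfolded proteins to the proteasome (ER-associated degradation, ERAD) and, when stress persists, engage cell death. Tumours that secrete much protein or grow with little oxygen or glucose are known to rely on this response.

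All 3 sensors were named in the MDA231 table, where the named share of all background genes was 15.8%. The rule chose terms by name for ER stress, folding and degradation. The sensors and the members in the downstream arms all entered through those terms, so nothing is read from their presence. EIF2AK3 (PERK) and ERN1 (IRE1 alpha) were each named in 8 of the 314 terms, and ATF6 in 2. The share of term genes that were listed was 41.3% for response to endoplasmic reticulum stress (31 of 75 background genes; exact binomial 95% interval 30.1 to 53.3%). It was 39.0% for the IRE1-mediated unfolded protein response (23 of 59; 26.5 to 52.6%) and 38.3% for the ER-associated ubiquitin-dependent protein catabolic process (23 of 60; 26.1 to 51.8%). It was 36.4% for intrinsic apoptotic signaling in response to ER stress (12 of 33; 20.4 to 54.9%) and 30.0% for protein folding (54 of 180; 23.4 to 37.3%). The whole MDA231 list holds 3626 of 16792 background genes, or 21.6%. The authors' table holds enriched terms only, so a term share above 21.6% was fixed by the choice of terms and nothing is read from it. Intervals cover the draw of genes only.

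**Figure D1:**
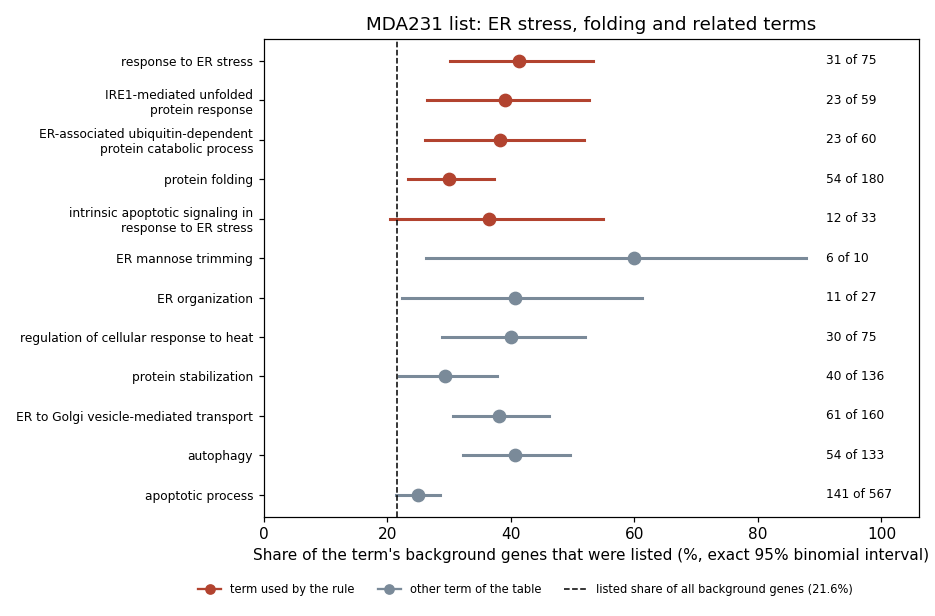
Share of each term's background genes that were in the MDA231 list (x axis, %), with exact 95% binomial intervals, for the 5 terms that define the ER stress genes (red) and 7 other terms (grey); the numbers at the right are listed and background genes. The 5 red points lie between 30.0% and 41.3%; the dashed line marks the listed share of all background genes, 21.6%, and terms were deposited only where enriched, so their place to its right was fixed by that choice.

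None of the 5 terms passed an adjusted p of 0.05 in the authors' deposited table, where 15 of the 314 terms (4.78%) did. Response to ER stress, which ranked 19 by p, came nearest, with a fold of 1.91 and an adjusted p of 0.0761 in the authors' deposited table. The adjusted p was 0.453 for the IRE1 term, 0.497 for the ERAD term, 0.555 for protein folding and 0.952 for the apoptotic term, with folds of 1.81, 1.78, 1.39 and 1.68, in the authors' deposited table. A fold here is the term's share of the listed genes over its share of the background, and cannot exceed 4.63. The unadjusted p was under 0.05 in 4 of the 5 terms and in 214 of all 314 (68.2%), and the apoptotic term had 0.0809, in the authors' deposited table. The largest unadjusted p among the deposited terms was 0.0973, so this last term stands near the end of what was listed, at rank 275.

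Most members stood in only 1 of the 5 terms. Of the 117 members, 98 were in 1 of the terms, 17 were in 2 and 2 were in 3. The overlap among other terms was not worked out, so these counts have no scale beside them. WFS1, the ER membrane protein wolframin that is mutated in Wolfram syndrome, was in the general stress, IRE1 and ERAD terms. ERN1 itself was in the general stress, IRE1 and apoptotic terms. The general and apoptotic terms overlapped most, sharing CEBPB, DDIT3, ERN1, MAP3K5, TNFRSF10B, TRAF2 and TRIB3 (Jaccard index 0.194, meaning that 7 shared genes are 22.6% of the general and 58.3% of the apoptotic term). The general and ERAD terms shared OS9, UBE4B, USP19 and WFS1, and the general and folding terms shared ERP27, PDIA4, TMX4 and TXNDC11. Protein folding had 47 of its 53 members to itself and shared 0 with either the ERAD or the apoptotic term.

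**Figure D2:**
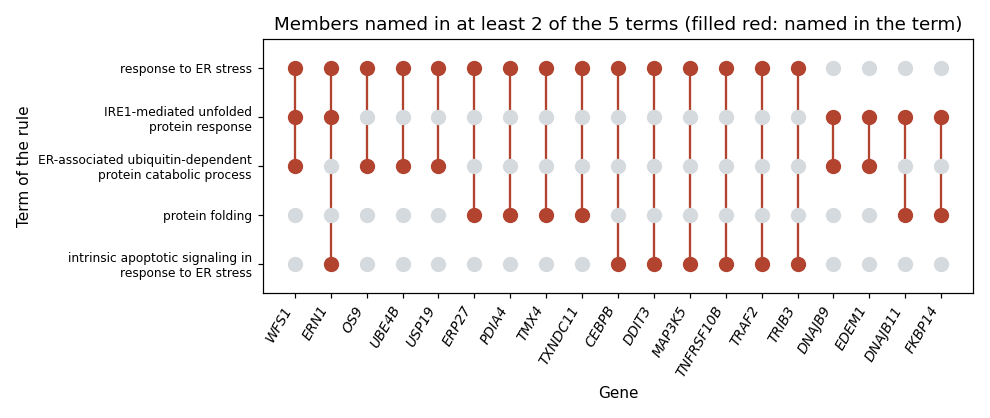
The 19 members named in at least 2 of the 5 terms (x axis) against the terms (y axis); red marks a term that names the gene and grey one that does not. WFS1 and ERN1 stand in 3 terms, 7 genes link the general stress term with the apoptotic term, and 4 link it with protein folding.

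The PERK branch had 5 members. EIF2AK3 (chromosome 2, 88556741 to 88627576, minus strand, GRCh38) was in the general stress term only among the 5, and in 7 others, among them protein phosphorylation, ER organization and caspase activation in apoptosis. DDIT3, the transcription factor CHOP that is induced downstream of PERK, was in 8 terms in all. TRIB3, a pseudokinase induced by CHOP, was in 10, including cellular response to insulin stimulus and regulation of glucose transport. CEBPB, a dimerisation partner of CHOP, was in 4, and TMEM33, an ER membrane protein that binds PERK, in 2. Of the 19 genes in a PERK and integrated stress list, 7 were named in the table (36.8%), 4 of them as members. For this list and those below, the named share of all background genes was 15.8%. The lists were drawn up with the enriched terms known, so nothing is read from their shares. SESN2, a stress-induced inhibitor of MTORC1 signalling, asparagine synthetase ASNS and the adaptor NCK2 were named in terms outside the ER group, namely autophagy, fatty acid beta-oxidation and glucose import for SESN2, glutamine metabolism for ASNS and vesicle transport for NCK2. ATF4, the central transcription factor of this branch, was not named, nor were EIF2S1, ATF3, CHAC1, PPP1R15A or the other eIF2alpha kinases EIF2AK1, EIF2AK2 and EIF2AK4. A gene that is not named may still have been listed if it belongs to no deposited term, since only the terms past the deposited limit print their genes. Each of the 5 terms names all its listed genes, so an unnamed gene that belongs to 1 of them was not listed. Which unnamed genes belong to a deposited term was not looked up.

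The IRE1 branch was led by ERN1 (chromosome 17, 64039142 to 64130819, minus strand), whose 8 terms include those for endonucleolytic RNA cleavage and mRNA catabolism, the activity of its RNase domain. TRAF2, the adaptor that IRE1 recruits, was in 15 terms, the most of any member, and 13 of these lie outside the ER group, mostly in death receptor and ubiquitin signalling. MAP3K5 (ASK1), the kinase downstream of TRAF2, was in 9, including the JNK and p38MAPK cascades. PIK3R1 and PIK3R2, regulatory subunits of phosphoinositide 3-kinase that bind XBP1, were in 7 and 3. In the IRE1 list, 9 of 22 genes were named (40.9%) and 8 were members. Of these 8, DNAJB9, DNAJC3, SRPRB, SERP1 and AIFM1 are placed in other arms, and PIK3R1 and PIK3R2 are not in the list. The ninth, the kinase MAPK8 (JNK1), was in 6 terms outside the ER group. XBP1 itself was not named, nor were RTCB, the ligase that joins its spliced mRNA, or the IRE1 inhibitor TMBIM6.

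ATF6 (chromosome 1, 161766294 to 161964070, plus strand) entered through the protein folding term and was otherwise named only under transcription. MBTPS2, the site-2 protease that completes ATF6 cleavage, and CREB3, an ER-bound factor cut by the same proteases, were in the general stress term. NFYC, a subunit of the NF-Y complex that binds beside ATF6 on target promoters, was in protein folding. Of 13 genes in the ATF6 list 5 were named (38.5%), the fifth being CREBZF, a bZIP transcription factor, in 4 terms outside the ER group. ATF6B, MBTPS1 and the 4 CREB3L genes were not named.

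Folding inside the ER and entry into it held 22 members. Thioredoxin-fold proteins were the disulfide isomerases PDIA4 and AGR2, the related ERP27, which lacks a catalytic thiol pair, the membrane proteins TMX4 and TXNDC11, and the sulfhydryl oxidase QSOX2. BiP (HSPA5), the main ER Hsp70, was not named, but partners of it were. These were the J-domain cochaperones DNAJB9, DNAJB11, DNAJC1 and DNAJC3, which also restrains PERK, and the nucleotide exchange factor SIL1. HYOU1, an ER Hsp110 that also serves BiP, is among the 4 genes left out for standing in the ER to Golgi term. The prolyl isomerases were FKBP2, FKBP14 and PPIC. Handling of N-glycans was represented by the glucosidases MOGS and GANAB, the mannosyltransferase ALG12 and the oligosaccharyltransferase subunit STT3B. The translocon subunit SEC61A1, the signal receptor subunit SRPRB, the translocon-associated SERP1 and the receptor chaperone LRPAP1 complete the set. In all, 13 of the 22 were in no term outside the ER group, and the most terms for any was 4 (SEC61A1).

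Of 38 genes in the ER chaperone list, 14 were named (36.8%) and 9 were members. The 24 unnamed ones include HSPA5, HSP90B1, CALR, CANX, PDIA3, PDIA6 and P4HB, which are among the most abundant ER proteins. The unnamed genes thus include the principal chaperone, its Hsp90 counterpart and both lectin chaperones. The named members are cochaperones, glucosidases, oxidoreductases and a prolyl isomerase, but genes of such kinds, among them DNAJC10, ERO1A, TMX1 and FKBP10, were also unnamed. The list was drawn up with the enriched terms known, so nothing is read from this division. The 5 named genes that are no members were HYOU1, UGGT1, UGGT2, the secreted ER stress protein MANF and the cyclophilin PPIB. Whether an unnamed gene was listed can be read only if it belongs to a deposited term, and the terms of the unnamed genes were not looked up.

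Folding outside the ER supplied 33 members, all through the protein folding term. In the cytosol and nucleus there were 26. CCT4 and CCT7 are subunits of the TRiC chaperonin, VBP1 belongs to prefoldin, which delivers substrates to it, and PDCL is a phosducin-like cofactor of TRiC. The Hsp70 system was represented by HSPA4L, DNAJA2, DNAJB4, ST13 and BAG4, and the Hsp90 system by FKBP4, PPID, CDC37L1, DNAJC7, NUDC, NUDCD2 and NUDCD3. PPIL1, PPIL2 and PPIL3 are nuclear cyclophilins, TBCC folds tubulin, CRYAB is a small heat shock protein and MKKS a chaperonin-like protein. RUVBL2, an AAA ATPase, was in 9 terms and RANBP2, a nucleoporin, in 8, mostly for DNA repair, chromatin, transport or mitosis, and CSNK2B, the regulatory subunit of casein kinase 2, was in 6. The 7 mitochondrial members were the Hsp70 HSPA9, its cochaperones DNAJA3 and GRPEL2, the Hsp90 TRAP1, the unfoldase CLPX, cyclophilin D (PPIF) and thioredoxin 2 (TXN2). DNAJA3 was in 12 terms and no other mitochondrial member in more than 3. Of 65 genes in the cytosolic and mitochondrial list 20 were named (30.8%), with HSF1, the heat shock transcription factor, in 7 terms and BAG1 in 3 terms outside the ER group. The inducible Hsp70 genes HSPA1A and HSPA1B, HSP90AA1, HSP90AB1, HSPD1 and 6 of the 8 TRiC subunits were not named.

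ERAD held 22 members, 21 of them in the ERAD term, and they act at several steps of the pathway. EDEM1, EDEM2 and MAN1B1 trim mannose from misfolded glycoproteins, and the lectins OS9 and ERLEC1 read the trimmed glycan. In the mannose trimming term, which is outside the rule, 4 of the 6 listed genes were EDEM1, EDEM2, MAN1B1 and OS9, and the other 2 were the folding sensors UGGT1 and UGGT2. That term has 10 background genes in all, so 60% were listed (exact binomial interval 26.2 to 87.8%; fold 2.78 and adjusted p = 0.862 in the authors' deposited table). HERPUD1 is a scaffold of the retrotranslocation complex, ERLIN1 marks substrates such as inositol trisphosphate receptors, and UBXN8 tethers the ATPase p97 to the membrane. UBE2G2, UBE2J1 and UBE2J2 are the ubiquitin-conjugating enzymes of the pathway, AUP1 recruits UBE2G2, and RNF103, RNF185, TRIM13, UBE4B and the F-box protein FBXO6 provide ligase activity. UBQLN2 is a shuttle to the proteasome, PSMC1 a proteasomal ATPase, USP19 an ER-anchored deubiquitinase and ANKZF1 a peptidyl-tRNA hydrolase of ribosome quality control. WFS1 completes the group.

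Of 68 genes in the ERAD list 22 were named (32.4%), of which 19 were members; UGGT1 and USP13 were among those that were not. The unnamed genes include the core ligase SYVN1 (HRD1) and its partner SEL1L, the derlins DERL1, DERL2 and DERL3, and the p97 complex (VCP, UFD1 and NPLOC4). The list was drawn up with the enriched terms known, and the terms of its unnamed genes were not looked up. Nothing is therefore read from which of its genes were named. UFC1, the conjugating enzyme of the ubiquitin-like modifier UFM1, which acts at the ER, was in the general stress term and no other.

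The death arm held 8 members beside those of the PERK and IRE1 branches. BCL2L11 (BIM) and BAK1 are pro-apoptotic members of the BCL2 family and were in 7 terms each. TNFRSF10B, the TRAIL receptor DR5 that CHOP induces, was in 9, and 7 of these lie outside the ER group. CASP4 is an inflammatory caspase associated with the ER, ITPR1 an ER calcium release channel, AIFM1 a mitochondrial death effector and PPP2CB a catalytic subunit of protein phosphatase 2A. GSK3B, a kinase of many pathways, was in 13 terms. Of 43 genes in the death list 17 were named (39.5%), including BID in 6 terms and CDK5RAP3 in 3 terms outside the ER group. BAX, BCL2, BCL2L1, MCL1, CASP9, APAF1, and the BH3-only genes BBC3 and PMAIP1 were not named. Some genes stand in more than 1 of these lists.

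**Figure D3:**
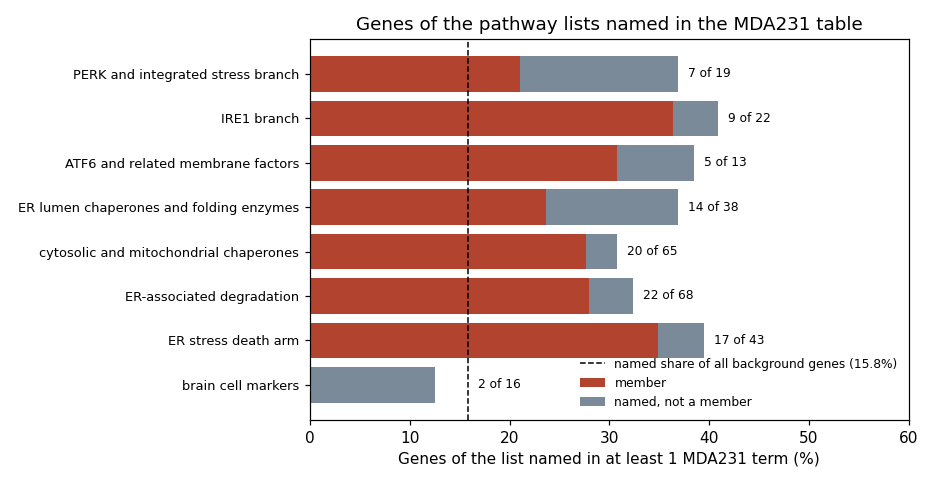
Percent of the genes of each list that are named in at least 1 MDA231 term (x axis), split into members (red) and genes named in other terms only (grey), with counts at the bar ends. The 7 pathway lists lie between 30.8% and 40.9% and the brain cell markers at 12.5%, against a dashed line at 15.8%, the named share of all background genes.

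Together the 7 pathway lists hold 252 different genes, of which 84 were named (33.3%) and 68 were members. For comparison, 2646 of the 16792 background genes (15.8%) were named. The lists were drawn up with the enriched terms known, and a gene can only be named through such a term, so these shares are not independent of how the lists were chosen and carry no test. The other 49 members were in no list.

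A last set of 16 members has no settled place in these arms. The IRE1 term contributed 10 of them, largely genes known as transcriptional targets of XBP1: ACADVL, a mitochondrial acyl-CoA dehydrogenase, CTDSP2, a phosphatase, CUL7, a cullin, DDX11, a DNA helicase, EXTL3, a glycosyltransferase, GFPT1, the entry enzyme of the hexosamine pathway, KLHDC3, MYDGF, a secreted growth factor, PPP2R5B, a phosphatase 2A subunit, and WIPI1, an autophagy protein. The general term gave CERT1, the ceramide transporter, elongation factor EEF2 and the autophagy regulator NRBF2. Protein folding gave the alanyl-tRNA synthetase AARS1, the G protein subunit GNAI1 and sphingosine kinase SPHK1.

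Members were named in a median of 2 terms, as were the 2529 other named genes, and in a mean of 3.39 terms, against 2.57 for the other named genes. These counts include the terms that chose the members, and a gene in many terms is more readily taken by a rule over 5 terms, so the higher mean is partly fixed by the rule. Members varied widely among themselves. The median was 8 terms in the PERK and IRE1 branches and 5.5 in the death arm. It was 3 in ERAD, 2 in all 3 folding groups, 1.5 for ATF6 and related factors and 1 for UFM1 conjugation. Within the signalling branches the spread was wide too, with 15 terms for TRAF2, 3 for PIK3R2 and 2 for TMEM33. In all, 36 of the 117 members, 13 of them in ER folding, were in no term outside the rule.

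**Figure D4:**
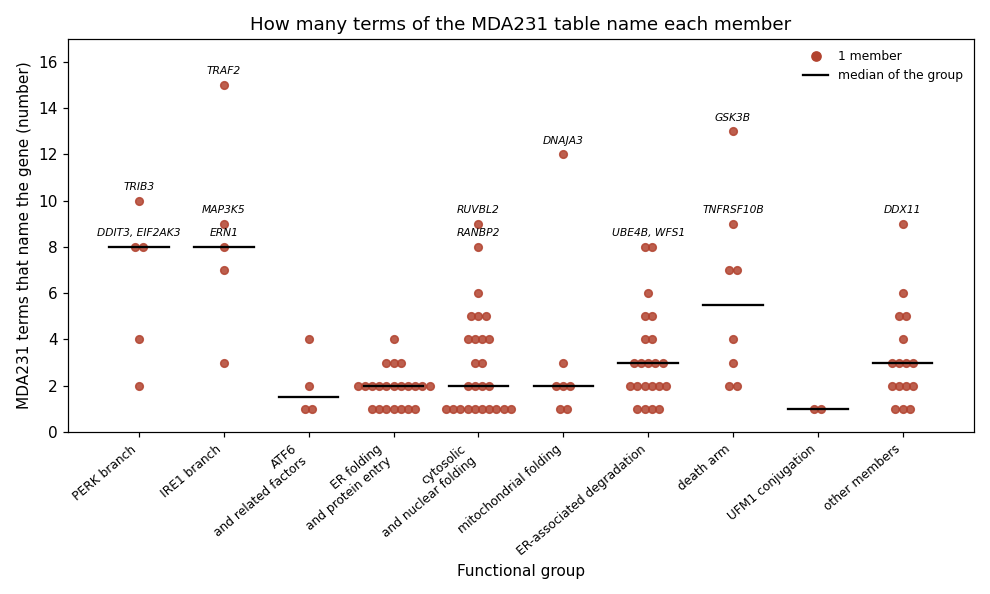
Number of MDA231 terms that name each of the 117 members (y axis), by functional group (x axis); each point is 1 gene and the bar is the group median. TRAF2 with 15, GSK3B with 13, DNAJA3 with 12 and TRIB3 with 10 stand highest, and the medians of the PERK and IRE1 branches are 8.

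The other 81 members linked the group to 124 of the 309 remaining terms. As a scale for the shares that follow, members were 4.42% of all genes named in the table. Transcription, DNA-templated held 8 members, 1.79% of its 448 genes, and apoptotic process 7, or 4.96% of its 141 genes, with adjusted p-values of 0.955 and 0.849 in the authors' deposited table. Protein phosphorylation, with an adjusted p of 0.0350 in the authors' deposited table, held 8 members: EIF2AK3, ERN1, GSK3B, MAP3K5, TRIB3, PIK3R1, CERT1 and CSNK2B. These were 5.97% of the term's genes, near the 4.42% over all named genes. As a share of the members they were 6.84%. Regulation of cellular response to heat held BAG4, CRYAB, DNAJC7, FKBP4, GSK3B and RANBP2, which are 20% of its 30 genes. Caspase activation in apoptosis held 6 of 29 (AIFM1, BCL2L11, DNAJA3, EIF2AK3, TNFRSF10B and TRAF2) and protein stabilization 7 of 40. Autophagy, at an adjusted p of 0.00124 in the authors' deposited table, held NRBF2, RNF185, UBQLN2 and WIPI1, 7.41% of its 54 genes. Ubiquitin-dependent protein catabolism held 5 of 56, namely CUL7, HERPUD1, UBE2G2, UBE4B and USP19. In the authors' deposited table the adjusted p was 0.133 for the heat term and 0.536 for caspase activation. It was 0.801 for protein stabilization and 0.435 for ubiquitin-dependent protein catabolism in the authors' deposited table.

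The rule made no use of the HCC1954 table. This table named 30 genes in 37 terms, and 0 of the 117 members and 0 of the 252 pathway list genes were among them. None of its term names matched the rule. Its list covered 66 of 16792 background genes (0.393%), so few members could be found there whatever their levels, and the difference between the lines was not tested.

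Stress response motifs were looked up in promoters of the members, because the 3 branches act through known DNA elements. The windows run from 250 bases before to 50 bases after a gene start (RefSeq, GRCh38.p14), and 93 of the 117 members had at least 1. The motifs were the ER stress element ERSE (CCAAT, then 9 bases of any kind, then CCACG), bound by ATF6 with NF-Y; ERSE-II (ATTGG, 1 base of any kind, CCACG); the unfolded protein response element UPRE (TGACGTGG), bound by XBP1 and ATF6; the ATF4 element (TGATGCAA or TGATGTAA); and the heat shock element (GAA, TTC and GAA, each 2 bases apart). Both strands were read, and none of the matches found overlapped another.

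The 4 members with an ERSE or ERSE-II are shown, with the motifs in capitals, because these were the rarest of the motifs over all genes. ALG12 (chr22:49918389-49918688, minus strand) and SERP1 (chr3:150546447-150546746, minus strand) carry an ERSE, and HERPUD1 (chr16:56931892-56932191, plus strand) and RUVBL2 (chr19:48993198-48993497, plus strand) an ERSE-II. HERPUD1 also carries an ATF4 element, on the reverse strand. Each is written 5′ to 3′ on the strand of its gene.
ALG12: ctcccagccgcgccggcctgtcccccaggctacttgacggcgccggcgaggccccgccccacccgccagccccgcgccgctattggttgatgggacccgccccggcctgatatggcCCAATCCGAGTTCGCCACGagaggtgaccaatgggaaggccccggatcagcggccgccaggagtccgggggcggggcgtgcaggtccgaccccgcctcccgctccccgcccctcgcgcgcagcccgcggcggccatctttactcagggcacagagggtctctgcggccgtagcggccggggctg
SERP1: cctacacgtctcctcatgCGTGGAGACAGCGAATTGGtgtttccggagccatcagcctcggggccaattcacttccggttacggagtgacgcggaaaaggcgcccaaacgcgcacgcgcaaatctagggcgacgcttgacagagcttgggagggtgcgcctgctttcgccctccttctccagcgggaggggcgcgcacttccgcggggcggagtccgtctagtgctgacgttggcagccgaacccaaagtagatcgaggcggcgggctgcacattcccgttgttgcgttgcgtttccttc
HERPUD1: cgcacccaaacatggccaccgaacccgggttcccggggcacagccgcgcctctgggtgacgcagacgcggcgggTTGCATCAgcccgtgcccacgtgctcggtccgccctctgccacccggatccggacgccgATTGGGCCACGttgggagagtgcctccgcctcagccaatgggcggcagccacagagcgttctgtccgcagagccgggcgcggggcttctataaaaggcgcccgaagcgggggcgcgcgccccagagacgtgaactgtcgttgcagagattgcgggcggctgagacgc
RUVBL2: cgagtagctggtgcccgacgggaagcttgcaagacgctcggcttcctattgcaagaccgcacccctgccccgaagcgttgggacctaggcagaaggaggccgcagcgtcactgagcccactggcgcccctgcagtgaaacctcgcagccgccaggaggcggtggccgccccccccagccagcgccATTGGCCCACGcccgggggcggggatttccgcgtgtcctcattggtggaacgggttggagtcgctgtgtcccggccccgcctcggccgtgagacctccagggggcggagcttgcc

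Positions below count the first transcribed base as 0, with minus signs upstream. The ERSE of ALG12 starts at -134, and that of SERP1, which lies on the reverse strand, at -232. The ERSE-II of HERPUD1 starts at -117 and that of RUVBL2 at -65, and the ATF4 element of HERPUD1 at -176. UPRE matches were found at 5 in TXNDC11 and, on the reverse strand, at -231 in UBE2J1. ATF4 elements were found in PIK3R1 at -55 and, on the reverse strand, in AARS1 at -187.

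An ERSE or ERSE-II was present in 4 of 93 members (4.30%), against 5 of 2102 other named MDA231 genes (0.238%) and 44 of all 27305 genes with a window (0.161%). A UPRE was present in 2 members (2.15%), against 1.67% of the other named genes and 0.927% of all genes. An ATF4 element was present in 3 members (3.23%), against 1.19% of the other named genes and 2.11% of all genes, and a heat shock element in 0 members, against 0.476% and 0.608%. Any of these was found in 8 members (8.60%), against 3.47% of other named genes and 3.73% of all genes. The median share of G and C in a window was 65.3% in members, against 64.7% in other named genes and 58.7% in all genes. The matches are few and describe these windows only. Members were chosen through terms for ER stress and folding, and unlisted genes of the same terms were not set beside them. The higher share of ERSE or ERSE-II can therefore not be tied to being in the MDA231 list, and it was not tested.

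**Figure D5:**
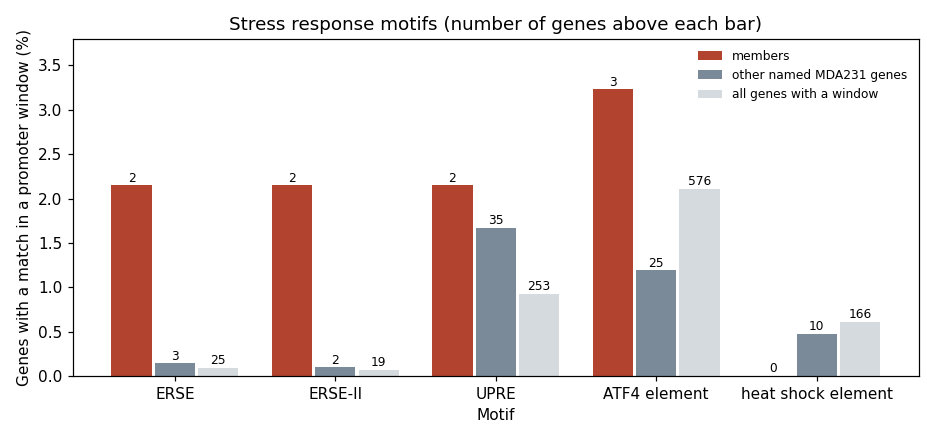
Percent of genes with each motif in a promoter window (y axis) for members, other named MDA231 genes and all genes with a window, with the number of genes above each bar. ERSE and ERSE-II were each in 2 of 93 members (2.15%), against 0.0916% and 0.0696% of all genes, and the heat shock element was in 0 members. Members were chosen through terms for ER stress and folding, and unlisted genes of those terms are not shown apart.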

How the data were processed

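For either line the authors deposited a table of enriched Gene Ontology processes. STAR, HTSeq, GRCh38 and GRCm38 are named in the submitters' processing notes; how genes were chosen for the lists, and which enrichment tool and test were applied, is not given in the sources used here. Per the file headers, the deposited percent is a term's genes among the submitted genes, the deposited fold enrichment is a ratio of listed to background share, and the deposited p-value is given unadjusted and adjusted (Benjamini). The deposited false discovery rate was not used.

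Members were found by term name and matched to symbols by Ensembl identifier (117 of 117), and positions are from GENCODE release 29 on GRCh38. Intervals are exact (Clopper-Pearson) 95% binomial intervals of listed genes among a term's background genes. Promoter windows were matched to RefSeq gene records, and of 126 member windows 110 had their first 20 transcribed bases in a GENCODE transcript of the same gene; the motif search was tested on simulated data. Members, gene lists and motifs were chosen with earlier results of these data known. The rule named members in at least 3 of the terms, members in a list, and up to 5 further members per term; other members were named after their values were seen. The placing of members in arms was also done then. A few genes are not reported here by name. IP and input could not be compared, and no test was run. Scripts ran in Python 3.11.15 with SciPy 1.17.1 for intervals, NumPy 2.4.6 for quartiles and Matplotlib 3.10.9 for plots.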

Additional observations from a re-analysis of the deposited data

How the results depend on the processing

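With only genes in at least 2 of the 5 terms the group held 19 genes, and without the protein folding term 70, in place of 117; with the ER to Golgi genes kept in it held 121, and with only terms at an unadjusted p under 0.05 it held 112. Members with a motif numbered 5 in the 200 bases before the start and 5 on the gene strand alone, in place of 8; the share over all genes was 2.82% and 1.98%, against 5.38% of members in both. The highest overlap of terms was 0.583 as a share of the smaller term, in place of a Jaccard index of 0.194. Named genes of the pathway lists numbered 69 in the 5 terms alone and 64 in at least 2 terms, in place of 84. The listed share of response to ER stress was 40% with 1 gene taken off and 41.3% from the printed identifiers, and the Wilson interval was 30.9 to 52.6%. The HCC1954 table named 0 members by symbol as well. No paired analysis was possible because the tables hold no value per library, and leaving out a replicate was not possible for the same reason. Depth is not known, and terms share genes, so their shares are not independent.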

Other observations

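Some members lie near each other on the genome. DDIT3 of the PERK branch, OS9 of ERAD and CTDSP2, which is in the IRE1 term, lie on chromosome 12, with 172 kb between DDIT3 and OS9 and 98.4 kb between OS9 and CTDSP2. KLHDC3 and CUL7, both from the IRE1 term, lie 16.3 kb apart on chromosome 6. MOGS and AUP1 lie 61.2 kb apart on chromosome 2, UBXN8 and PPP2CB 7.45 kb apart on chromosome 8, and TRAF2 and MAN1B1 160 kb apart on chromosome 9. These 6 pairs are all member pairs less than 200 kb apart in GENCODE.

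All 117 members are protein-coding. Their genes spanned a median of 28.8 kb, against 36.5 kb for the 2528 other named protein-coding genes and 27.1 kb for all 19951 protein-coding genes. The middle range, between the quartiles, was 16.1 to 44.7 kb in members, against 15 to 82.1 kb in the other named genes. Exonic length had a median of 4.70 kb in members, against 5.42 kb in the other named genes and 4.21 kb in all protein-coding genes.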
